A study of Mus musculus with 6 samples.

Results

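Irx1, Irx2, Irx3, Irx5, Meis1, Meis2, Pbx3, Zic1 and Zic2 are 9 patterning transcription factors, chosen by name, and all 9 were found among the 17551 genes of the deposited gene count table. RNA was sequenced from 6 cultures of mouse neurospheres, free-floating spheres kept in serum-free medium with EGF and FGF, all on a C57BL/6 background. Neural stem and progenitor cells form such spheres, and which cells made up these cultures was not tested. In 3 cultures (G328V replicates 1, 2 and 3) the genotype was given as ACVR1 G328V, a glycine-to-valine change in a BMP receptor kinase, and in 3 (WT replicates 1, 3 and 70A) as ACVR1 WT. The submitters code these groups NPAC and NP and describe them as biological replicates. What else the codes stand for, and which animals the cultures came from, the labels do not say. The p-values thus cover only the spread among these 6 cultures. Values are listed in the order G328V replicates 1, 2 and 3 and WT replicates 1, 3 and 70A. The comparison asked whether these 9 genes differed between G328V and WT neurospheres.

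Irx, Meis, Pbx and Zic genes tell a neural progenitor where along the body axes it lies. Irx genes encode Iroquois homeodomain proteins, sit in clusters in the genome and mark territories such as the midbrain, the hindbrain and intermediate domains of the spinal cord. Meis and Pbx proteins are homeodomain proteins of the TALE class that bind DNA together, often with Hox proteins, and are used in many regions of the brain. Zic genes encode zinc finger proteins of the dorsal neural tube, where BMP signals are high, and of cerebellar granule cell precursors; Zic1 and Zic4, and Zic2 and Zic5, are neighbours pointing away from each other.

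The start regions of 4 of these genes are shown, because the data below turn on Irx2 and Zic1, which were each nearly silent in 1 culture, and on the neighbour pairs Zic1 and Zic4, and Zic2 and Zic5. Each runs 5′ to 3′ on the gene's own strand, from 250 bases before to 50 bases after the RefSeq start (GRCm38.p6). A search of both strands covered TGACAG (bound by MEIS proteins), TGATTGAT (PBX) and 2 SMAD elements, GGCGCC and GTCTAGAC, none of which overlapped another here, and capitals mark the matches. Zic1 lies on chromosome 9 on the minus strand (chr9:91365719-91366018), Zic4 on chromosome 9 on the plus strand (chr9:91368722-91369021), Zic5 on chromosome 14 on the minus strand (chr14:122465609-122465908) and Irx2 on chromosome 13 on the plus strand (chr13:72628570-72628869).

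Zic1: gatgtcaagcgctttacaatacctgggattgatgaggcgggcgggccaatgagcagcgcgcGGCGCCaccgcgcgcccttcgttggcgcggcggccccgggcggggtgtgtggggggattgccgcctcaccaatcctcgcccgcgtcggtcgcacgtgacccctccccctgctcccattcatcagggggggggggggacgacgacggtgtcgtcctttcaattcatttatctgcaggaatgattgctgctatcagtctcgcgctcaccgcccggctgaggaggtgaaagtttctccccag

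Zic4: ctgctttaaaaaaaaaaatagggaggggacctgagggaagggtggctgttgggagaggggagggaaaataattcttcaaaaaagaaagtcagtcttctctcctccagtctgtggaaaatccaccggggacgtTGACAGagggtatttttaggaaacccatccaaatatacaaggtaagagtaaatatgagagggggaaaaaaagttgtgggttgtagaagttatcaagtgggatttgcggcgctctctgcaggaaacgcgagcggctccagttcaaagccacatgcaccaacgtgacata

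Zic5: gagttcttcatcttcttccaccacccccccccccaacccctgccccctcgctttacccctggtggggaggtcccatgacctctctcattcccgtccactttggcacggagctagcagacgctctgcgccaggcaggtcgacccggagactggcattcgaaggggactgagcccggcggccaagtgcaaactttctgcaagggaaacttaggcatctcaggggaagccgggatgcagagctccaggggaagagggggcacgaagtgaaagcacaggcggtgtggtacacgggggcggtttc

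Irx2: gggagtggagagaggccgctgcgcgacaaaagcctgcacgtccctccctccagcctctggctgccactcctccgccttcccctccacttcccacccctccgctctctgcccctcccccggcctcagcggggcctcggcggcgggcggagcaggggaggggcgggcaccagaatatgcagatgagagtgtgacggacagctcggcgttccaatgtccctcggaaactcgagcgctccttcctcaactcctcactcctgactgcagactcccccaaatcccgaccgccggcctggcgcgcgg

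Of the 9 genes, Irx2, Irx3, Meis1, Meis2 and Zic1 matched an entry of the RefSeq promoter table, and Irx1, Irx5, Pbx3 and Zic2 did not. Among the 4 windows shown, GGCGCC was found once, in that of Zic1, starting at base 62 counted from its 5′ end, and 11.9% of 32851 promoter windows of the same length hold it. TGACAG was found once among the 4, in the Zic4 window at base 133, against 19.2% of all windows. TGATTGAT and GTCTAGAC were found in none of the Irx2, Irx3, Meis1, Meis2, Zic1, Zic4 and Zic5 windows, and occur in 0.746% and 0.213% of all windows. The Zic1 window was rich in CpG, with 31 CG pairs, more than 89.4% of all windows hold, and the Irx2 window had 25, more than 81.6% of windows. Such matches describe the letters only.

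In the whole series, total gene counts per library ranged from 115953495 to 191115532, so the spread between cultures limits most values here more than counting does. Acvr1 itself lay at 244 to 650 CPM (gene counts scaled to a library size of 1e6 with TMM factors) in G328V cultures and between 42.4 and 100 CPM in WT ones, higher in every G328V library, although counts do not tell the mutant from the normal allele. The neural stem cell genes Sox2, Nes and Vim were present in all 6 libraries, at no less than 134, 91.2 and 1718 CPM, while 3 other genes of that marker list of 6 were low in WT replicates 3 and 70A. There Sox1 was at 0 and 0.0402 CPM, Fabp7 at 0.182 and 0.574 CPM and Msi1 at 0.716 and 1.22 CPM, against at least 6.11, 2.64 and 5.70 CPM in the other 4 libraries. Xist was at 443 CPM or more in each G328V library and at most 1.18 CPM in each WT library, so sex-linked expression and genotype cannot be told apart. WT replicate 1 stood apart, with 416 CPM of Olig2, a factor of the oligodendrocyte lineage, against at most 0.938 CPM elsewhere. G328V replicate 1 stood apart with 65.2 CPM of Sox10, a neural crest and oligodendrocyte factor, against at most 0.0574 CPM elsewhere.

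None of the 9 genes separated G328V from WT neurospheres. The groups overlapped in CPM for all 9, where they did not overlap for 9.7% of the 14643 genes tested. By edgeR's quasi-likelihood test, with Benjamini-Hochberg adjustment over all 14643 genes, 0 of the 9 passed an FDR of 0.05, and 0% of all genes did. At an unadjusted p under 0.05 the count was also 0 of 9, against 4.06% of genes tested. DESeq2 called 0 of the 9 and 1.05% of the genes for which it gave an adjusted p, and limma-voom called 0 of the 9. The differences were positive for 7 genes and negative for 2, Irx3 and Meis1, beside 7275 positive and 7368 negative over all genes tested. The median log2 difference was 0.61 beside -0.0039 over all genes tested. Of the 7 positive genes, Irx2, Irx5, Pbx3 and Zic2 changed sign when some single library was left out. This tilt of the set was not tested. In bulk RNA, fewer cells with a gene and less of its RNA per cell cannot be told apart.

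**Figure D1:**
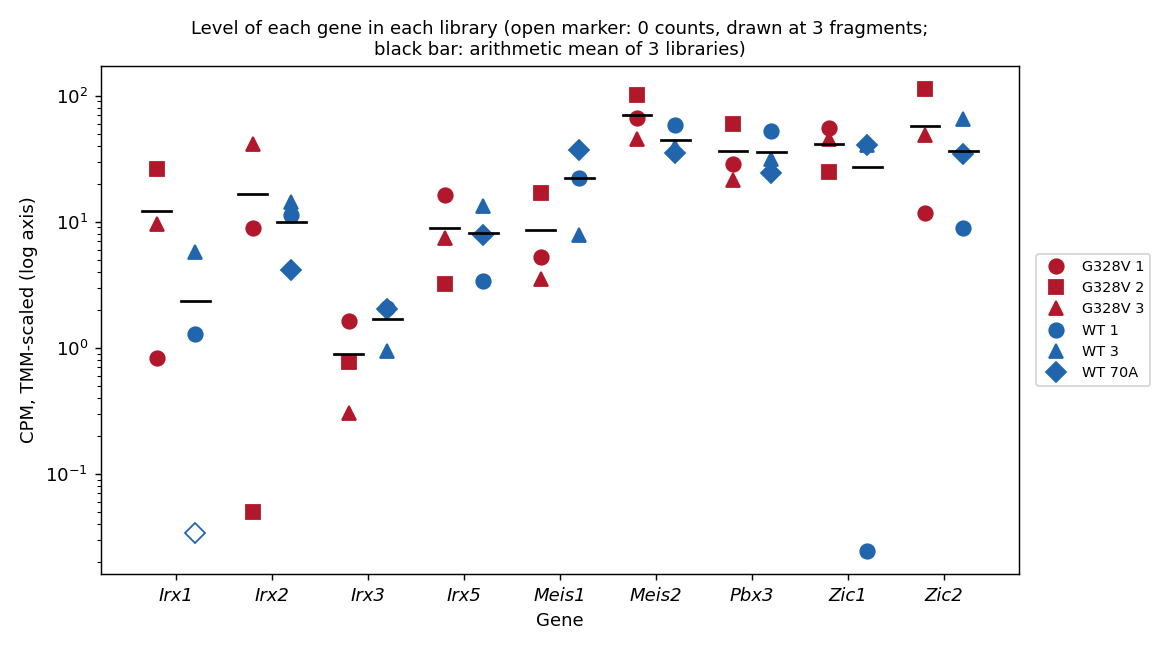
Level of each of the 9 genes in each of the 6 libraries in CPM on a log axis, with markers for replicates, red for G328V and blue for WT, and a black bar for the arithmetic mean of 3 libraries. The markers of the groups overlap for every gene, and Irx1 in WT replicate 70A (0 counts, open marker), Irx2 in G328V replicate 2 and Zic1 in WT replicate 1 lie far below the other libraries.

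Cultures of the same group differed widely in 3 of the 9 genes, Zic1, Irx1 and Irx2. The SD of log2 CPM (prior count 2), pooled over the groups, was 4.15 for Zic1, 3.72 for Irx1 and 3.52 for Irx2, above that of 96.8%, 94.9% and 94% of the 12546 tested genes with a mean of at least 1 CPM. Their median was 0.56. Zic2, Meis1, Irx5 and Irx3 were intermediate, at 1.56, 1.15, 1.09 and 0.95. Meis2 and Pbx3 varied about as much as a typical gene, with SDs of 0.49 and 0.67. Meis2, Pbx3, Zic2, Meis1, Irx5 and Irx3 were on in all cultures, the lowest value being 0.305 CPM, of Irx3 in G328V replicate 3. Zic1, Irx1 and Irx2 were nearly or fully off in 1 culture each, and in a different culture for each gene.

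Irx1, on chromosome 13, encodes an Iroquois repressor of the cluster that it shares with Irx2 and Irx4. Its level was 0.833, 26.1 and 9.58 CPM across the G328V cultures, against 1.29, 5.73 and 0 CPM across the WT ones. G328V replicates 2 and 3 were the highest of the 6 libraries, but G328V replicate 1 lay below WT replicates 1 and 3. WT replicate 70A had 0 counts, which allows up to 0.0338 CPM, the level of 3 sequenced fragments in that library. Set over that level, G328V replicate 1 was 24.6-fold and G328V replicate 2 771-fold higher, with the counting error of these G328V libraries left out. The group means were 12.2 ± 12.8 CPM (SD, n = 3) across the G328V cultures, against 2.34 ± 3.00 CPM across the WT ones. The log2 difference of 2.38 (SE 2.15, 95% interval -2.85 to 7.60) did not pass edgeR's test (adjusted p = 0.997), and it was 1.15 without G328V replicate 2 and 4.22 without WT replicate 3.

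Irx2, its neighbour on the same chromosome, was at 8.97, 0.0498 and 41.0 CPM across the G328V cultures, against 11.3, 14.2 and 4.17 CPM across the WT ones. The highest and the lowest library were thus both G328V. G328V replicate 2 held 6 counts of Irx2, or 3 fragments in the Cufflinks table. By fragments WT replicate 70A, the next lowest, was 87.5-fold higher (exact Poisson 95% interval 29.7 to 426, counting error only). The same G328V replicate 2 held the highest Irx1 level. The group means were 16.7 ± 21.5 CPM (SD, n = 3) across the G328V cultures, against 9.91 ± 5.18 CPM across the WT ones. The log2 difference was 0.75 (SE 1.65, interval -3.26 to 4.76, edgeR adjusted p = 0.997), and it turned to -1.14 without G328V replicate 3 and to -1.09 with limma-voom.

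Irx3 and Irx5 share the second Iroquois cluster, on chromosome 8, with Irx6. Irx3, a factor of intermediate neural tube domains, was the least abundant of the 9 genes, at 1.62, 0.764 and 0.305 CPM across the G328V cultures, against 2.08, 0.943 and 2.04 CPM across the WT ones. The 2 highest libraries were WT replicates 1 and 70A, while WT replicate 3 lay inside the G328V range. The log2 difference was -0.91 (SE 1.00, interval -3.33 to 1.51, edgeR adjusted p = 0.997) and was -1.66 without G328V replicate 1. Irx5 was at 16.2, 3.19 and 7.40 CPM across the G328V cultures, against 3.37, 13.4 and 7.77 CPM across the WT ones, so its values spanned almost the same range in both groups. The group means were 8.93 ± 6.64 and 8.18 ± 5.02 CPM (SD, n = 3), and the log2 difference of 0.13 (SE 0.79, interval -1.80 to 2.05, edgeR adjusted p = 0.997) turned to -0.63 without G328V replicate 1 and to -0.25 without WT replicate 1.

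Meis1, a TALE partner of Hox and Pbx proteins, came closest to lower values in G328V. It was at 5.28, 16.8 and 3.54 CPM across the G328V cultures, against 22.1, 7.84 and 37.1 CPM across the WT ones. The 2 lowest libraries were G328V and the 2 highest were WT, with G328V replicate 2 above WT replicate 3. The group means were 8.53 ± 7.19 and 22.3 ± 14.6 CPM (SD, n = 3). The log2 difference was -1.39 (SE 0.81, interval -3.36 to 0.58), with an unadjusted edgeR p of 0.136 and an adjusted p of 0.997. Without G328V replicate 2 it was -2.34 with an unadjusted p of 0.0308 (adjusted p = 0.969, with 0.807 to 1.0 over all alternatives), and without WT replicate 70A it was -0.83.

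Meis2, the Meis gene with the most counts in 5 of the 6 libraries before any correction for length, was at 66.3, 100.2 and 44.9 CPM across the G328V cultures. It was at 58.2, 38.9 and 35.2 CPM across the WT ones. The 2 highest libraries were G328V and the 2 lowest WT, with WT replicate 1 above G328V replicate 3. The group means were 70.5 ± 27.9 and 44.1 ± 12.3 CPM (SD, n = 3). The log2 difference of 0.68 had the smallest error of the 9 (SE 0.38, interval -0.25 to 1.60, edgeR adjusted p = 0.997) and was positive without any 1 library, from 0.33 without G328V replicate 2 to 0.92 without G328V replicate 3. Pbx3, a PBC-class partner of Meis proteins, was at 28.6, 59.5 and 21.3 CPM across the G328V cultures, against 52.4, 31.3 and 24.1 CPM across the WT ones. Its group means, 36.5 ± 20.3 and 35.9 ± 14.7 CPM (SD, n = 3), were almost equal. The log2 difference was 0.021 (SE 0.50, interval -1.19 to 1.23, edgeR adjusted p = 0.9996), and its sign changed without G328V replicate 2 (-0.53) and without WT replicates 3 or 70A (-0.087 and -0.21).

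Zic1, a zinc finger factor of the dorsal neural tube, was on in 5 cultures and nearly off in 1. It was at 55.3, 24.6 and 44.9 CPM across the G328V cultures, against 0.0244, 40.8 and 40.9 CPM across the WT ones. WT replicates 3 and 70A lay inside the G328V range, and WT replicate 1 held 3 counts in the HTSeq table and 4 fragments in the Cufflinks table. By fragments G328V replicate 2, the next lowest library, was 392-fold higher than WT replicate 1, with an exact Poisson 95% interval of 153 to 1439 for counting error. The log2 difference between groups was 0.61 (SE 1.67, interval -3.45 to 4.67, edgeR adjusted p = 0.997). It was 0.014 without WT replicate 1 and 2.83 with limma-voom. The oligodendrocyte lineage markers Olig1 and Olig2 stood at 615 and 416 CPM in that same culture and at 1.07 and 0.938 CPM or less in the others. Summed over all 5 markers of the lineage, WT replicate 1 had 1044 CPM against 13.6 to 231 CPM elsewhere, most of it from Olig1 and Olig2. The other markers of the lineage were not high there. Pdgfra was at its lowest in WT replicate 1, at 9.65 CPM against 12.6 to 158 CPM elsewhere. Cspg4 was at 3.27 CPM there, inside its range of 0.810 to 61.9 CPM elsewhere. Sox10 was at 0.0569 CPM there and at 0 in 2 other libraries. The part of these markers in the Zic1 value was not tested.

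Zic2, a second dorsal zinc finger factor, was at 11.8, 113.3 and 48.6 CPM across the G328V cultures, against 8.90, 65.8 and 34.7 CPM across the WT ones. In each group replicate 1 was the lowest library, and the groups covered much of the same range. The group means were 57.9 ± 51.3 and 36.5 ± 28.5 CPM (SD, n = 3). The log2 difference was 0.67 (SE 0.97, interval -1.68 to 3.01, edgeR adjusted p = 0.997), was -0.27 without G328V replicate 2 and reached 1.38 without WT replicate 3.

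**Figure D2:**
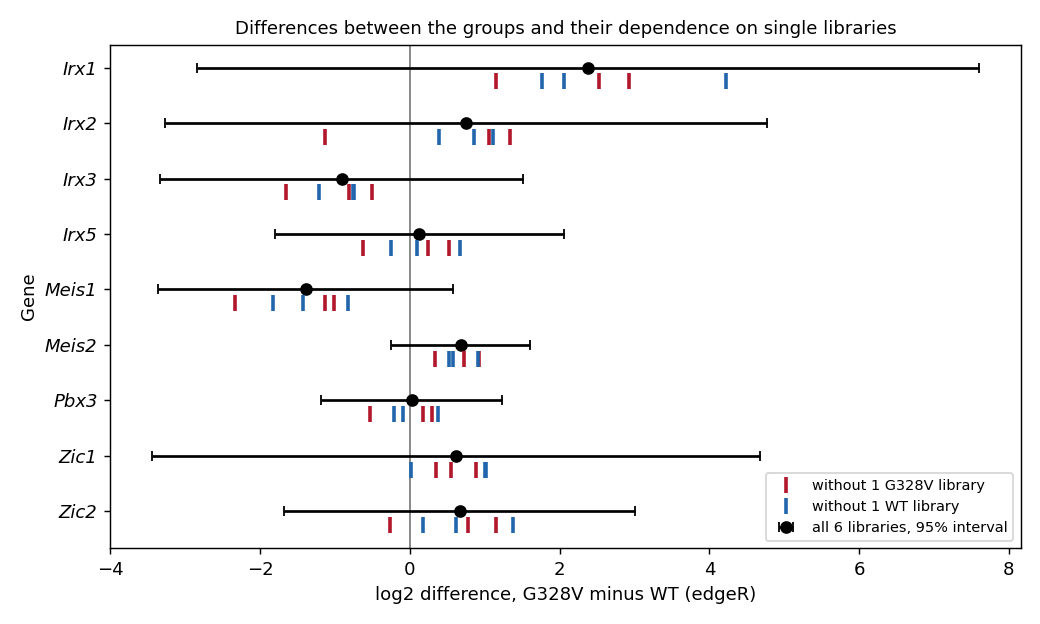
The log2 difference between G328V and WT for each gene (black point, all 6 libraries) with its 95% interval, and the same difference after leaving out 1 G328V library (red tick) or 1 WT library (blue tick). All 9 intervals include 0, and the ticks fall on both sides of 0 for Irx2, Irx5, Pbx3 and Zic2.

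The annotated genes lie on GRCm38 (GENCODE vM21) as follows, and exons of all annotated transcripts were used. The Irx1 and Irx2 genes are at chr13:71957921-71963723 and chr13:72628820-72634198, and Irx3 and Irx5 at chr8:91798525-91802067 and chr8:92357625-92376286. Meis1 is at chr11:18879817-19018985, Meis2 at chr2:115863064-116065839 and Pbx3 at chr2:34171457-34373142. Zic1 is at chr9:91358058-91365810 and Zic2 at chr14:122475435-122479852.

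Levels of different genes were compared per kb of annotated exon (GENCODE vM21, GRCm38). Averaged over the 6 libraries, Zic2 was the highest at 16.4 CPM per kb, followed by Zic1 (6.05), Pbx3 (5.93), Meis2 (4.76), Irx2 (4.05), Irx1 (2.77), Irx5 (2.74), Meis1 (1.47) and Irx3 (0.468). Each gene overlapped the next in this order over the 6 libraries. Zic2 was the highest of the 9 per kb in G328V replicates 2 and 3 and in WT replicates 3 and 70A. Zic1 was the highest in G328V replicate 1, at 9.72 CPM per kb, and Pbx3 in WT replicate 1, at 8.57 CPM per kb. The lowest gene per kb was Irx1 in G328V replicate 1 and WT replicate 70A, Irx2 in G328V replicate 2, Zic1 in WT replicate 1 and Irx3 in G328V replicate 3 and WT replicate 3.

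The make-up of the Irx family differed from culture to culture. Family shares here and below are of counts, without correction for gene length. Irx1 held 86.7% of the counts of Irx1, Irx2, Irx3 and Irx5 in G328V replicate 2. Irx2 held 70.3% in G328V replicate 3, 62.7% in WT replicate 1 and 41.5% in WT replicate 3. Irx5 held 58.6% in G328V replicate 1 and 55.6% in WT replicate 70A. The leading Irx gene thus differed among the 3 cultures of G328V, and Irx2 and Irx5 led in WT. The summed level of the 4 genes varied less than Irx1 or Irx2 alone, at 27.6, 30.1 and 58.2 CPM across the G328V cultures, against 18.1, 34.3 and 14.0 CPM across the WT ones.

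Zic shares also differed between cultures. Zic1 held 76.8% of the counts of Zic1, Zic2, Zic4 and Zic5 in G328V replicate 1 and 0.216% in WT replicate 1, where Zic2 held 78.7%. Zic2 also led in G328V replicate 2, at 71.1%. Meis1 held 5.70% to 12.1% of the counts of Meis1, Meis2 and Meis3 in G328V and 12.9% to 44.6% in WT. The nearest of these, 12.1% in G328V replicate 2 and 12.9% in WT replicate 3, almost met. In CPM the groups overlapped for Meis1, and the share was not tested and has no background beside it. WT replicate 70A was the only library in which Meis1 passed Meis2.

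**Figure D3:**
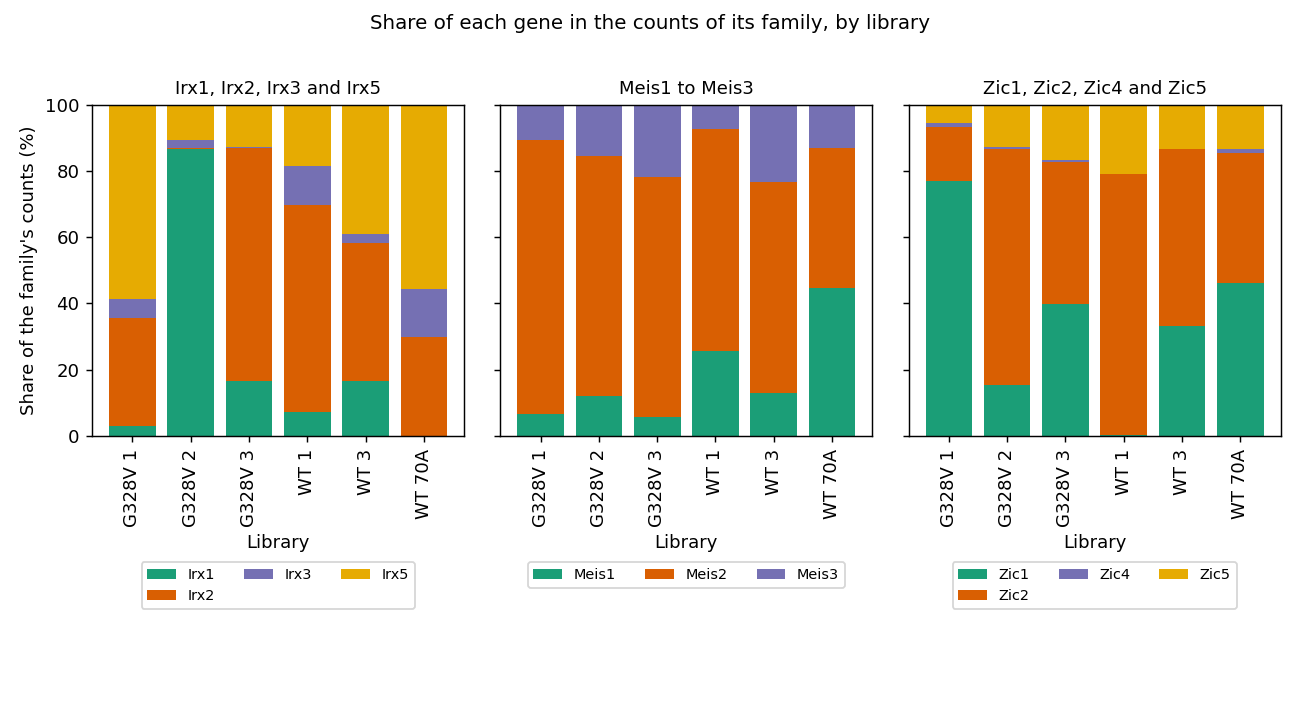
Share of each gene in the summed counts of its family (percent) in each library, for 4 Irx genes, 3 Meis genes and 4 Zic genes. Irx1 fills most of the Irx bar in G328V replicate 2 (86.7%), and Zic1 is all but missing in WT replicate 1 (0.216%).

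Neighbouring genes varied together in some pairs and not in others. Each r below is Pearson's r of log2 CPM over the same 6 libraries, given as a description. Zic2 and Zic5 start 9.76 kb apart on chromosome 14, on opposite strands, and had r = 0.96. Zic5, also a zinc finger factor, was at 4.04, 20.5 and 18.8 CPM across the G328V cultures, against 2.38, 16.4 and 11.9 CPM across the WT ones. Like Zic2, it was lowest in replicate 1 of each group. Zic1 and Zic4 start 3.40 kb apart on chromosome 9 by their outermost annotated starts, and had r = 0.69. By these starts Zic4 begins inside Zic1, and the annotated bodies overlap on opposite strands. The RefSeq start of Zic4 used for the window shown (chr9:91368722-91369021) is a different one and lies beyond the Zic1 body. Zic4 was at 0.828, 1.09 and 0.674 CPM across the G328V cultures, against 0, 0.0114 and 0.925 CPM across the WT ones, so both genes were at or near 0 in WT replicate 1. By rank (Spearman's rho) the value for Zic1 and Zic4 was only 0.26. In WT replicate 3, Zic1 was at 40.8 CPM while Zic4 had 2 counts. The Cufflinks table gives 35 fragments of Zic4 there, and over all libraries Zic4 had 1.55 counts per fragment against 1.88 to 1.99 for the 9 genes, so its counts are uncertain.

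The Irx clusters showed a mixed picture. Irx1 and Irx2 start 665.1 kb apart and had r = -0.22. That value rests on G328V replicate 2, with the highest Irx1 and the lowest Irx2 level: in the other 5 libraries both genes had the same order, lowest in WT replicate 70A, then G328V replicate 1, WT replicate 1, WT replicate 3 and highest in G328V replicate 3. This order was noticed after the values were seen. Irx3 and Irx5 start 555.6 kb apart and had r = 0.017. Irx5 and 4933436C20Rik, the non-coding RNA gene now named Crnde that starts 1505 bases away on the opposite strand, had r = 0.85. The counts of that RNA are uncertain, as it had 1.57 counts per fragment. That RNA was at 2.98, 1.06 and 2.38 CPM across the G328V cultures, against 1.19, 1.86 and 1.46 CPM across the WT ones, with G328V replicate 1 highest and G328V replicate 2 lowest, as for Irx5. Fto, whose introns hold long-range enhancers of Irx3, was at 104 to 151 CPM in all 6 libraries and had r = -0.19 with Irx3.

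**Figure D4:**
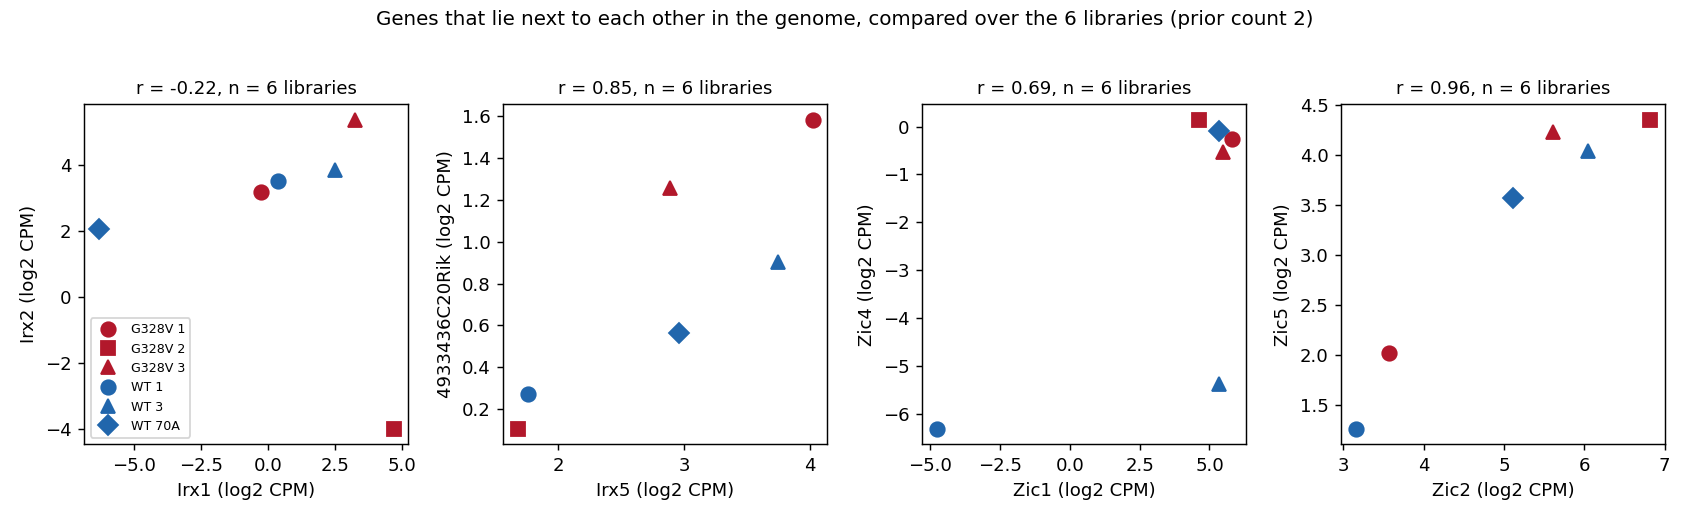
Log2 CPM of neighbouring genes in the 6 libraries, red for G328V and blue for WT, with a panel for each of 4 pairs. Zic2 and Zic5 lie along a line (r = 0.96), G328V replicate 2 stands apart for Irx1 and Irx2, and WT replicate 1 is low for both Zic1 and Zic4.

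Among the 36 pairs of the 9 genes, 14 had a positive and 22 a negative r over the 6 libraries, and 1 pair was over 0.7: Meis2 and Pbx3, at 0.74. Both were highest in G328V replicate 2. Irx3 and Meis1 had r = 0.68, both being high in WT replicates 1 and 70A. Zic1 and Zic2 had r = 0.58, which WT replicate 1 sets, since by rank (Spearman's rho) the value was -0.086. The most negative pairs by r were Irx2 with Meis2 (r = -0.72) and Irx5 with Pbx3 (r = -0.72). By rank these were at -0.37 and -0.49. The most negative by rank were Irx1 with Irx3, Irx3 with Zic2 and Pbx3 with Zic1, each at -0.77. These points share libraries and normalization, and 6 points leave such values loose.

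Genes with the most similar pattern over the 6 libraries were taken from 8856 tested genes with a mean of at least 10 CPM. For Zic1 they were Aup1, Nqo1 and Dock5 (r = 0.9997, 0.997 and 0.996), each lowest in WT replicate 1. Nqo1, a quinone reductase, was at 0.284 CPM there and at 46.9 to 103 CPM elsewhere. Aup1 still held 35.7 CPM in WT replicate 1, against 77.7 to 86.3 CPM elsewhere. For Irx2 they were Rbm45, Slc38a1 and Papd4 (r = 0.995, 0.991 and 0.990), each lowest in G328V replicate 2, where the glutamine transporter gene Slc38a1 was at 90.8 CPM against 227 to 414 CPM elsewhere. For Irx1 they were Zfp324, Sergef and Bax (r = 0.992, 0.988 and 0.987), each lowest in WT replicate 70A, though Bax still held 20.9 CPM. The genes nearest to Irx3 were Ptpn1, Mkl2 and Il1rap (r = 0.988, 0.972 and 0.964), and those nearest to Irx5 were Huwe1, Wdr59 and Seh1l (r = 0.993, 0.986 and 0.985). Meis1 was followed most closely by Ksr1, Zbtb17 and Lrrc45 (r = 0.991, 0.989 and 0.979), and Meis2 by Fadd, Saal1 and Ccdc46 (r = 0.990, 0.985 and 0.979). Pbx3 was followed by Pfn2, Zfp871 and Serpine2 (r = 0.994, 0.992 and 0.982), and Zic2 by Nit1, Hist1h1b and Pddc1 (r = 0.993, 0.985 and 0.984). With 6 libraries each r rests on few points. Between 39 and 299 of the 8856 genes (0.44% to 3.38%) had r over 0.9 with a given member, so the 3 named for each are the highest of many.

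Other genes of the same families gave no edgeR call either. Irx4 and Irx6 were not in the HTSeq table, and the Cufflinks table lists Irx4 at 0 fragments in all libraries and Irx6 at 1 fragment in WT replicate 1 and 0 in the rest. The list of TALE genes and their kin held 13 tested genes, Meis1, Meis2, Pbx3 and the PBX-interacting protein gene Pbxip1 included. Of these, 8 had positive and 5 negative differences, with a median of 0.11, and 0 were called by edgeR or DESeq2 at the FDR. In 1 of the 13 the unadjusted edgeR p was under 0.05 and the groups did not overlap, beside 4.06% and 9.7% of all genes tested, so 1 gene is near the background. It was Tgif2, a TALE repressor that binds SMAD proteins. It was at 62.8, 57.0 and 57.4 CPM across the G328V cultures, against 153, 89.6 and 79.9 CPM across the WT ones, a log2 difference of -0.86 (SE 0.31, edgeR adjusted p = 0.997). Tgif2 had 2.98 counts per Cufflinks fragment, where libraries had medians of 1.95 to 1.96, so its counts are uncertain. Pknox2, a Meis-like gene, was nearly off in WT replicate 3, with 1 count, and at 2.07 to 37.9 CPM in the other 5 libraries.

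Of 10 tested genes of the ZIC and GLI families, 5 had positive and 5 negative differences, with a median of 0.046, and none passed an unadjusted edgeR p of 0.05 or DESeq2's FDR. Gli2, a transcription factor of hedgehog signalling, was at 9.90, 0.108 and 0 CPM across the G328V cultures, against 14.6, 0 and 11.1 CPM across the WT ones. Its presence split the cultures within both groups, while Gli3 was at 16.2 CPM or more in every library.

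Other position genes were read from lists of regional, dorsal and ventral factors. Of 21 tested regional factors 12 had positive and 9 negative differences (median 0.22), edgeR called 0, 2 had an unadjusted p under 0.05 (4.06% of all genes) and DESeq2 called 1 (1.05% of all genes). The groups did not overlap for 3 of the 21, higher in G328V for 1 and lower for 2, beside 9.7% of all genes. They include Pax2 (higher) and Nr2f1 (lower). Nr2f1, an orphan nuclear receptor of forebrain patterning, was at 19.0, 38.7 and 21.7 CPM across the G328V cultures, against 86.2, 53.1 and 74.0 CPM across the WT ones (edgeR adjusted p = 0.997). Pax2, a factor of the midbrain-hindbrain boundary and the gene called by DESeq2, held 60, 667 and 25 counts across the G328V cultures, against 1, 8 and 0 across the WT ones, so G328V replicate 2 held most of them. Of 4 tested dorsal factors 3 had positive differences and edgeR called 0. For 1, the BMP target gene Msx2, the unadjusted edgeR p was under 0.05 (4.06% of all genes) and DESeq2 called it (1.05%). Its groups did not overlap (9.7% of all genes). It was at 26.0, 1.79 and 34.6 CPM across the G328V cultures, against 1.70, 0.301 and 0.632 CPM across the WT ones. G328V replicate 2 thus lay just above WT replicate 1, and the edgeR adjusted p was 0.997. Of 4 tested ventral factors 2 were positive and 2 negative, and edgeR and DESeq2 called 0, with 0 at an unadjusted p under 0.05.

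Markers of other cell types were read in the same libraries. The summed level of granule cell precursor markers, a class known for Zic1 and Zic2, was 3.56 to 39.0 CPM across the G328V cultures, against 15.02 to 32.0 CPM across the WT ones. Most of it came from Pax6, Barhl1 was not in the table, and Atoh1 was at 0 in 4 libraries and Neurod1 at 0 in 3. The meninges, which also make Zic proteins, had 6 markers with a summed level of 64.8 to 196.7 CPM across the G328V cultures, against 15.8 to 72.0 CPM across the WT ones, lowest in WT replicate 1, where Zic1 was also lowest. Most of that sum was Foxc1 and Pdgfrb, and in WT replicate 1 nearly all of it was Foxc1, at 15.6 CPM. Foxc1 was at 64.4 to 112 CPM across the G328V cultures, against 15.6 to 36.8 CPM across the WT ones. Groups did not overlap for 9.7% of all genes tested, and its edgeR adjusted p was 0.997. Pdgfrb was at 0.125 CPM in G328V replicate 3, where Zic1 was at 44.9 CPM. Col1a2, Dcn and Lum were each at 0 in at least 1 library. The part of these cells in the Zic values was not tested.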

How the data were processed

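Groups follow the genotype in the labels. Per the submitters' processing notes, the build was mm10, and Bowtie2 2.2.1, TopHat2 2.0.13 and FastQC 0.11.3 are listed without a role. Annotation and strand use are not given in the sources used. The authors deposited raw counts of 17551 genes (HTSeq) and estimated counts of 23107 genes (Cufflinks), the latter rounded to whole numbers before testing. Because strand use is unknown, counts of Irx3, Meis1, Pbx3 and Zic1, which overlap antisense genes in GENCODE vM21, are uncertain. Counts per fragment had medians of 1.95 to 1.96, so counts are not independent molecules, and the Poisson intervals and the floors were computed from fragments. The intervals of the log2 differences come from the edgeR fit to the counts.

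The main test was that of edgeR 4.0.16 under R 4.3.3 (legacy quasi-likelihood F-test, robust, TMM, filterByExpr with a minimum count of 10), G328V against WT without covariates, adjusted over 14643 genes. Standard errors come from the F statistic, and 95% intervals use them with the test's degrees of freedom. DESeq2 1.42.0, limma 3.58.1, other scalings and filters, the Cufflinks table and leaving out each library were alternatives. The members and lists were chosen with earlier results of these data known. All 9 members are named, with genes of their families (some are not reported here), up to 3 genes of smallest p per other list, and 3 genes of highest r per member.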

Additional observations from a re-analysis of the deposited data

How the results depend on the processing

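In all 15 alternatives, 0 of the 9 genes passed the FDR, and under the 3 tried for overlap (total-count scaling, DESeq2 size factors, Cufflinks counts) the groups overlapped for all 9. Irx1, Irx3, Meis1, Meis2 and Zic1 kept their direction in all 15, with ranges of 0.058 to 4.34, -1.66 to -0.50, -2.34 to -0.83, 0.20 to 0.92 and 0.014 to 5.18. The ends 0.058, 0.20 and 5.18 come from the fit with a replicate block described below. Irx2 was -1.09 with limma-voom and ranged from -1.14 to 1.33 without 1 library. The leave-one-out ranges of Irx5, Pbx3 and Zic2 were -0.63 to 0.67, -0.53 to 0.37 and -0.27 to 1.38. Pbx3 was also -0.0055 with DESeq2, -0.060 with limma-voom and -0.0060 with DESeq2 size factors in edgeR. The cause was not tested. Total-count scaling moved the median of all genes by 0.12 and turned no member's direction.

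The numbers 1 and 3 occur in both groups. With the replicate number as a block, Pbx3 and Zic2 were at -0.71 and -0.014, Irx1 at 0.058 and Zic1 at 5.18, and 0 of the 9 genes were called. G328V replicate 2 and WT replicate 70A are each alone in their block. The group difference in that fit thus rests on replicates 1 and 3 of each group only. Deviations from the group means correlated at 0.18 and 0.23 between same-numbered cultures, but also at 0.17 and 0.20 between some others, and no label says that a number marks a shared source. At these depths the spread between cultures sets the limits, and intervals as wide as -2.85 to 7.60 for Irx1 leave large differences undetectable with 3 cultures a group.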

Other observations

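Further position genes also differed sharply between cultures, and those named here were chosen after their values were seen. Hoxb2, Hoxb3 and Hoxb4 had 329, 611 and 545 counts in G328V replicate 1, the culture with the highest Zic1 and Irx5 levels, and 0 elsewhere except for 31 counts of Hoxb3 in WT replicate 70A. Foxa2, a floor plate factor, was at 36.6 CPM in G328V replicate 3 and 14.0 CPM in WT replicate 70A, and no higher than 1.82 CPM in any other library. Dbx2, a factor of intermediate neural tube progenitors, had 1050 counts in WT replicate 1, where Zic1 had 3, and at most 42 elsewhere. WT replicate 3 held 1 count of Hoxa3 and 0 of Hoxa2 and Hoxa4, while the other 5 libraries had between 50 and 2078 counts of each.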
